A study of Mus musculus with 12 samples.

Results

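The genes described here are 10 components of the Wnt pathway, Wnt5a, Fzd1, Fzd2, Fzd7, Lrp6, Adgra2, Reck, Sfrp1, Apcdd1 and Axin2, chosen by name and found as 10 of the 13233 genes measured. RNA-Seq was performed on hernia-associated fibroblasts (HAFs), primary fibroblasts grown from the lower abdominal muscle (LAM) of Aromhum mice. All 12 samples came from Aromhum cells, which carry a human aromatase (CYP19A1) transgene on a bacterial artificial chromosome with its own set of promoters, so no wild-type cells enter any comparison. The 4 treatments lasted 48 h, with replicates numbered 1, 2 and 3 in each, and were vehicle (ethanol and DMSO), E2 (estradiol) at 10 nM, fulvestrant at 100 nM, and both drugs together at these doses (E2 plus fulvestrant). Fulvestrant is an antagonist and degrader of the estrogen receptor ESR1. The fibroblasts had been separated by adhesion, passaged once and starved of serum and phenol red before treatment in medium with a little charcoal-stripped serum. Neither the sample labels nor the methods say whether the replicate numbers are separate animals or the age of the mice. The p-values below therefore cover only spread among these samples. In the main fit they cover only what remains after differences between replicate numbers are removed.

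Wnt ligands are secreted lipid-modified proteins that bind Frizzled receptors. In the beta-catenin branch of the pathway, a Frizzled receptor pairs with Lrp5 or Lrp6, the destruction complex built on Axin is disabled, and beta-catenin reaches TCF/LEF factors on target genes. Wnt5a usually acts through branches that do not need beta-catenin and that steer cell polarity and migration. Adgra2 (also called Gpr124) and Reck form a co-receptor complex that makes cells responsive to Wnt7a and Wnt7b. Sfrp1 binds Wnt ligands outside the cell, Apcdd1 is a membrane protein that blocks Wnt signaling at the receptor, and Axin2 is a scaffold of the destruction complex that is itself induced by beta-catenin. In fibroblasts the pathway is known for its part in proliferation and matrix deposition.

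The values are normalized counts, which are reads per gene divided by 1 factor per sample, with 18827792 to 44040507 reads per sample (median 31703872). Reads were recovered by taking the common step between low values of a sample as 1 read. Each value was then a whole number of reads over that factor, within 0.01. No value of 1 read was there to check this step, so the read numbers are estimates. Every listed gene had at least 15 reads in every sample, the lowest being Axin2 (15 to 130 reads), followed by Apcdd1 (122 to 440), and the other 8 genes had at least 526. Differences are log2 changes of normalized count + 1, fitted in limma on all 12 samples with replicate number as a block. A gene was called changed at a Benjamini-Hochberg adjusted p under 0.05 over all genes and a fold change over 1.2. As a check of the treatment, Pgr, a standard estrogen-responsive gene, averaged 71.7 ± 41.2 normalized counts with vehicle, 239 ± 83.3 with E2, 23.4 ± 7.50 with E2 plus fulvestrant and 16.9 ± 4.27 with fulvestrant (SD, n = 3 each). All 9 fibroblast markers were measured, whereas 0 of 7 skeletal muscle and 0 of 4 adipocyte markers were among the genes analysed here. Of the endothelial list, Tek was analysed here (58.4 to 277 normalized counts) and Pecam1 and Cdh5 were not. Of the pericyte and smooth muscle list, 4 of 5 were analysed here (summed level 2042 to 4528). For macrophages and leukocytes the number was 2 of 5 (90.7 to 389), without Ptprc and Adgre1. Of the mesothelial and epithelial list, 1 of 5 was analysed here, Wt1 (27.2 to 70.5). Their part in the results was not tested.

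Replicate 1 stood apart from replicates 2 and 3 in every group, and the first principal component, which held 70.79% of the variance of all genes, followed this split. The listed genes took part in it to very different degrees. Replicate 1 held 2.58-fold more Fzd1, 2.11-fold more Lrp6 and 3.21-fold more Axin2 than replicates 2 and 3, while Sfrp1 was 2.74-fold higher in replicates 2 and 3. For these 4 genes the replicate 1 values did not overlap those of the other replicates across all treatments. Wnt5a, Adgra2, Reck and Apcdd1 differed by 1.03-fold to 1.12-fold between the same samples, and their values overlapped. For this reason each comparison below was made within replicate numbers, and values are given in the order of replicates 1, 2 and 3.

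**Figure D1:**
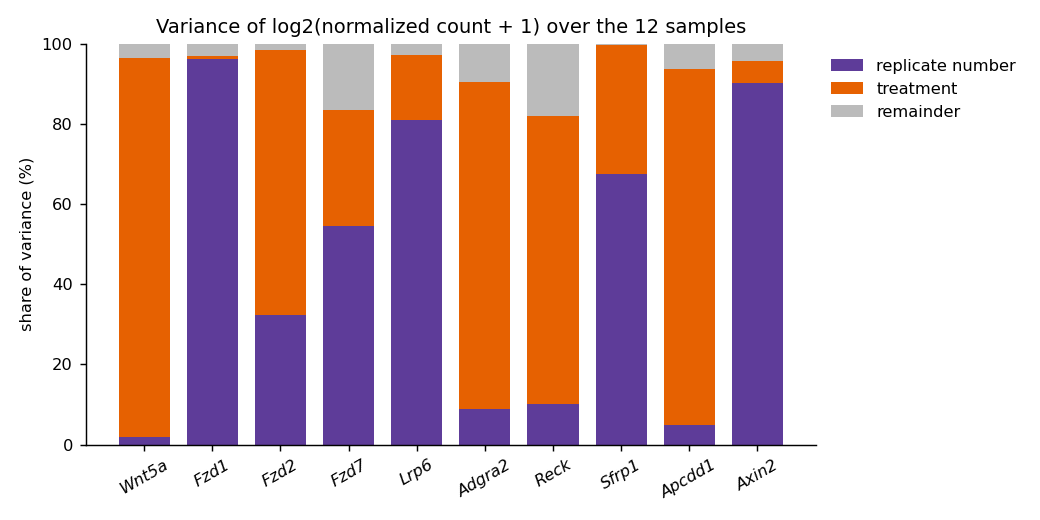
Share of the variance of log2(normalized count + 1) over the 12 samples (vertical axis, percent) that went with replicate number, with treatment and with neither, for each of the 10 genes (horizontal axis). Treatment held 94.5% for Wnt5a, 88.7% for Apcdd1 and 81.7% for Adgra2, whereas replicate number held 96.3% for Fzd1; for the median gene the shares were 17.9% for treatment and 57.7% for replicate number.

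Promoter sequence from RefSeq (GRCm38.p6) was at hand for 4 of the 10 genes, and the 250 bases before each gene's RefSeq start are printed to show which receptor and feedback genes carry the letters that TCF/LEF factors or ESR1 are known to prefer. The upstream sequences of Fzd1, chr5:4758217-4758466 (minus strand), Fzd7, chr1:59481897-59482146 (plus strand), Reck, chr4:43875280-43875529 (plus strand), and Axin2, chr11:108920099-108920348 (plus strand), are followed by those of Sfrp2, chr3:83766071-83766320 (plus strand), and Ptk7, chr17:46629505-46629754 (minus strand), a pair of further pathway genes chosen after their values were seen because they fell with fulvestrant. Capitals mark a TCF/LEF match (CTTTGA or CTTTGT) or a single arm of an estrogen response element (GGTCA) on either strand, with no overlap between the motifs. The windows of Fzd1 and Fzd7 do not adjoin the GENCODE gene positions given further on, because the RefSeq starts of these genes lie farther upstream.
Fzd1: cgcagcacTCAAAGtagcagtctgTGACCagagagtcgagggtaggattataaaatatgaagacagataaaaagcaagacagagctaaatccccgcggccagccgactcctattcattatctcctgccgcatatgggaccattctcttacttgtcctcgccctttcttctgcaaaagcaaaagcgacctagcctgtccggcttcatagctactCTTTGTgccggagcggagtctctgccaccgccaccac
Fzd7: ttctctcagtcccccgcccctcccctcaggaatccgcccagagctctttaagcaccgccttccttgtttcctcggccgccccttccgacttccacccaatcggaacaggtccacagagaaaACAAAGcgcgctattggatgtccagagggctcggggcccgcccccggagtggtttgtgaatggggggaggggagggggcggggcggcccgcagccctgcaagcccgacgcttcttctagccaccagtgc
Reck: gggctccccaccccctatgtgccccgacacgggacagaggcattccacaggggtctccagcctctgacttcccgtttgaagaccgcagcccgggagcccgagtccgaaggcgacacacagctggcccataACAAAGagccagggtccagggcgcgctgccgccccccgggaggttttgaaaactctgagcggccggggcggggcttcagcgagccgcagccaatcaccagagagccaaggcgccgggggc
Axin2: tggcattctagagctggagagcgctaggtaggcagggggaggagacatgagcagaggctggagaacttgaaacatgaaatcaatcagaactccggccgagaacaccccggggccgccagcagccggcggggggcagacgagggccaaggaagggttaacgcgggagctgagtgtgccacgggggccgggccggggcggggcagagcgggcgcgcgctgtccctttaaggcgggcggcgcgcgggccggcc
Sfrp2: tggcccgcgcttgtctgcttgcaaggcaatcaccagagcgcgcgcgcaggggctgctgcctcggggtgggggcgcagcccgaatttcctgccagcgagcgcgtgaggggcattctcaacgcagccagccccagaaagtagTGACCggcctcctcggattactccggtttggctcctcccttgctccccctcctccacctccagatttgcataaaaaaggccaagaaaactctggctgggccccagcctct
Ptk7: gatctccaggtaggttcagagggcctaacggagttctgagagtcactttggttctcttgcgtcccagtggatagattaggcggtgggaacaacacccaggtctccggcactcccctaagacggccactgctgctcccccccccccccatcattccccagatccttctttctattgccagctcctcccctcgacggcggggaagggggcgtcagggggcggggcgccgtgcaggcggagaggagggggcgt
Fzd1 held 2 TCF/LEF matches and 1 GGTCA, Fzd7 and Reck held 1 TCF/LEF match each, Sfrp2 held 1 GGTCA, and these letters were found 0 times in the windows of Axin2 and Ptk7. Over 32851 promoter windows of the same length, 27.62% held a TCF/LEF match and 35.24% held GGTCA, so such matches were common. The full element, GGTCA and TGACC with any 3 bases between them, was in 0 of these 6 windows and in 0.06% of all windows.

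With E2, 6 of the 10 genes were higher than with E2 plus fulvestrant, and 0 were lower. These were Sfrp1, Wnt5a, Apcdd1, Fzd2, Adgra2 and Lrp6, by 1.38-fold to 1.94-fold. Of all genes, 4.62% were called higher and 4.97% lower in this comparison, which sets estrogen with its receptor available against estrogen with its receptor blocked. The median log2 change was 0.50 over the 10 genes and -0.01 over all genes. Values did not overlap between the groups for 5 of the 10 genes, against 12.5% of all genes. Without the replicate block 1 (Wnt5a) was called, against 0.521% of all genes. Adgra2, Apcdd1 and Wnt5a are on the list of E2-upregulated genes that the study drew partly from these same samples, so their direction here is not independent evidence. With fulvestrant alone, 5 of the 10 genes were lower than with vehicle and 0 were higher. They were Sfrp1, Wnt5a, Fzd2, Lrp6 and Adgra2, by 1.36-fold to 1.89-fold, against 5.69% of all genes called lower (753) and 6.76% called higher (895). Scaling by the summed reads of each sample (CPM) turned that background to 951 lower and 688 higher, while the 5 genes kept their direction. Values did not overlap for 4 of the 10 genes, against 11.1% of all genes, and without the block 1 (Wnt5a) was called. Without replicate 3 the count was 3, against 3.02% of all genes. This comparison shares no group with the first, though both come from 1 fit with a common estimate of the spread. The summed level of the 9 fibroblast markers also moved with fulvestrant, from 441148 to 494592 with vehicle and 508043 to 566637 with E2 to 363066 to 376933 with E2 plus fulvestrant and 330723 to 395080 with fulvestrant alone. The matrix genes Col1a1, Col1a2, Col3a1 and Dcn made up 89.3% to 91.2% of this sum in each group. Single members spread more widely than the sum, as with vehicle Col1a2 ran from 118385 to 243523 and Dcn from 32211 to 107287. The receptor Pdgfrb moved less, with means of 10608 ± 455 normalized counts with vehicle, 10057 ± 466 with E2, 9526 ± 587 with E2 plus fulvestrant and 9391 ± 158 with fulvestrant (SD, n = 3 each). Thy1 was at 388 ± 269, 322 ± 215, 283 ± 216 and 356 ± 277. In the same order of groups Pdgfra was at 32021 ± 5491, 33408 ± 9057, 28602 ± 4369 and 26632 ± 2771. Lum was at 2604 ± 1334, 2960 ± 1527, 1115 ± 426 and 1071 ± 389. Esr1, the estrogen receptor gene, was at 348 ± 146, 550 ± 84.2, 126 ± 77.5 and 133 ± 77.8. Lower means with fulvestrant were thus not confined to the matrix genes, although the spread within groups was wide. The part of the sum in the results below was not tested, and in bulk RNA fewer cells of a type and less RNA per cell cannot be told apart.

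**Figure D2:**
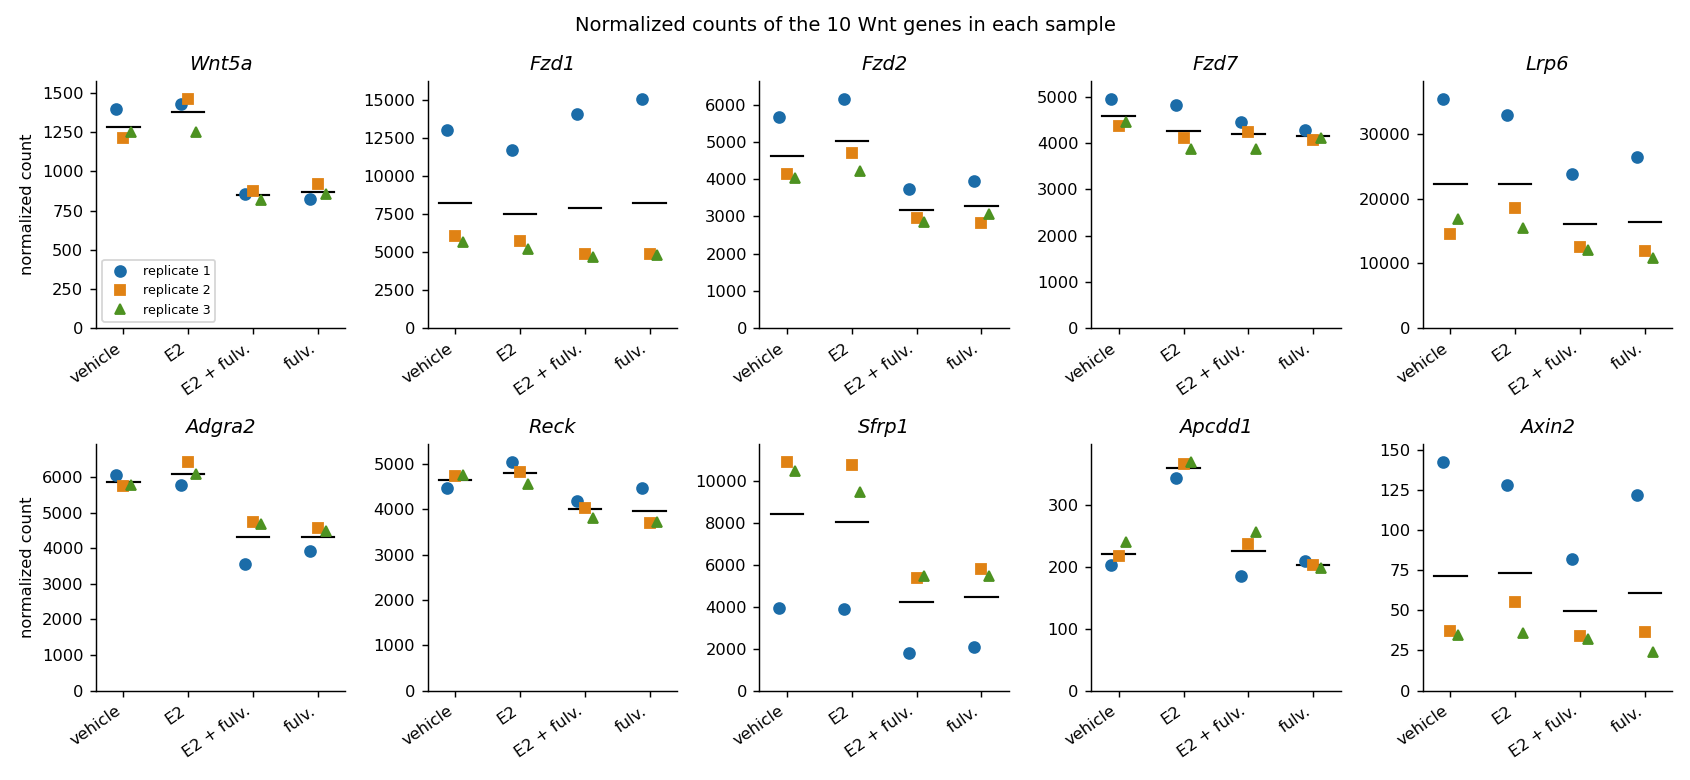
Normalized counts (vertical axes, each starting at 0) of the 10 genes in each of the 12 samples by treatment, with marker shape for replicate number and a bar at the mean of each group. Wnt5a, Fzd2 and Adgra2 lie lower in both fulvestrant groups (E2 + fulv. and fulv.) than in vehicle and E2, Apcdd1 lies highest with E2 alone (343 to 369), and Fzd1, Lrp6, Sfrp1 and Axin2 separate by replicate 1.

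Wnt5a, the only ligand of the 10, was the listed gene with the largest share of variance by treatment (94.5%). Its normalized counts were 1396, 1211 and 1252 with vehicle, 1434, 1461 and 1252 with E2, 855, 875 and 815 with E2 plus fulvestrant and 827, 923 and 853 with fulvestrant. All 6 samples with fulvestrant were below all 6 samples without it. The E2 mean of 1382 ± 114 and the E2 plus fulvestrant mean of 848 ± 30.8 (SD, n = 3) gave a log2 change of 0.70 (SE 0.07), with a limma adjusted p of 0.000173. Fulvestrant alone against vehicle gave a log2 change of -0.57 (SE 0.07), with a limma adjusted p of 0.000617. Wnt5a was also the 1 listed gene called in both comparisons without the replicate block (adjusted p of 0.00907 and 0.0286), when 0.544% of all genes were called in the latter. Added E2 did not move it past the threshold, either over vehicle (0.10, 95% interval -0.06 to 0.26) or over fulvestrant (-0.03, 95% interval -0.19 to 0.13).

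Of the 3 Frizzled receptors, Fzd2 was called in both comparisons and Fzd1 and Fzd7 in neither. Fzd2, which can bind Wnt5a, had normalized counts of 5682, 4138 and 4034 with vehicle, 6145, 4692 and 4229 with E2, 3723, 2968 and 2845 with E2 plus fulvestrant and 3938, 2822 and 3054 with fulvestrant. Replicate 1 was the highest in each group, and even so the samples with fulvestrant all lay below those without it. Within replicate numbers Fzd2 was higher in E2 than in E2 plus fulvestrant by 0.72, 0.66 and 0.57 on the log2 scale, a fitted log2 change of 0.65 (SE 0.05), limma adjusted p = 5.51e-05. With fulvestrant alone against vehicle Fzd2 showed a log2 change of -0.49 (SE 0.05), limma adjusted p = 0.000296. These calls rested on the pairing, since the adjusted p was 0.303 and 0.51 without the replicate block.

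Fzd1, a Frizzled receptor, had the largest share of variance by replicate number of the 10 genes (96.3%). In normalized counts it measured 13021, 6036 and 5661 with vehicle, 11701, 5710 and 5173 with E2, 14100, 4895 and 4674 with E2 plus fulvestrant and 15046, 4889 and 4781 with fulvestrant. The groups overlapped in every comparison. Fzd1 passed the threshold in 0 comparisons, with log2 changes of 0.03 (95% interval -0.20 to 0.27) for E2 minus E2 plus fulvestrant and -0.11 (-0.35 to 0.12) for fulvestrant minus vehicle. The replicates did not go the same way, because fulvestrant minus vehicle gave 0.21, -0.30 and -0.24 in replicates 1, 2 and 3. Without replicate 1 in all groups the same comparison gave -0.27, limma adjusted p = 0.00508, which would be a call.

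Fzd7 stayed within a narrow range, from 3880 to 4952 normalized counts over the 12 samples. It measured 4952, 4381 and 4452 with vehicle, 4819, 4111 and 3886 with E2, 4461, 4234 and 3880 with E2 plus fulvestrant and 4295, 4060 and 4114 with fulvestrant. The 3 vehicle samples lay above the 3 fulvestrant samples, with a log2 change of -0.14 (-0.26 to -0.02) and a limma adjusted p of 0.0983 that missed the threshold. The change for E2 minus E2 plus fulvestrant was 0.02, with a 95% interval of -0.10 to 0.14 that lay below the changes of Fzd2 and Wnt5a, although the difference between these genes was not tested.

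Lrp6, the co-receptor of the beta-catenin branch, was lower with fulvestrant within every replicate number, although its groups overlapped because of replicate 1. Samples held 35422, 14583 and 16809 normalized counts with vehicle, 32936, 18564 and 15475 with E2, 23829, 12562 and 12112 with E2 plus fulvestrant and 26459, 11975 and 10770 with fulvestrant. E2 minus E2 plus fulvestrant was 0.47, 0.56 and 0.35 in replicates 1, 2 and 3, a fitted log2 change of 0.46 (SE 0.09), limma adjusted p = 0.00958. Fulvestrant minus vehicle was -0.42, -0.28 and -0.64, a fitted log2 change of -0.45 (SE 0.09), limma adjusted p = 0.00897. Of the called genes, Lrp6 lost its calls in the most alternative fits, 4 of 22 and 5 of 22. The first call was lost without replicate 2 (adjusted p = 0.0821), without replicate 3 (0.0882), without E2 plus fulvestrant replicate 1 (0.0568) and without the block (0.995). The other was lost without replicate 3 (0.192), without vehicle replicate 3 (0.0507), without fulvestrant replicate 3 (0.0526), with the 2 groups fitted alone (0.0554) and without the block (0.957).

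Adgra2, the adhesion receptor of the Wnt7 co-receptor complex, was lower in both groups that received fulvestrant. Its normalized counts were 6047, 5765 and 5783 with vehicle, 5770, 6425 and 6094 with E2, 3559, 4733 and 4691 with E2 plus fulvestrant and 3934, 4559 and 4492 with fulvestrant. No sample with fulvestrant reached the lowest sample without it. E2 (6097 ± 328) against E2 plus fulvestrant (4328 ± 666, SD, n = 3 each) gave a log2 change of 0.51 (SE 0.08), limma adjusted p = 0.0026, higher in 3 of 3 replicate numbers. Fulvestrant (4328 ± 343) against vehicle (5865 ± 158) gave a log2 change of -0.44 (SE 0.08), limma adjusted p = 0.00462, lower in 3 of 3. The fulvestrant effect was largest in replicate 1, at -0.62, -0.34 and -0.36 in replicates 1, 2 and 3. The calls were lost without the block (adjusted p = 0.112 and 0.169), and fulvestrant against vehicle also without replicate 2 (0.0506) or replicate 3 (0.0679).

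Reck, the membrane-anchored partner of Adgra2 and an inhibitor of matrix metalloproteinases, had smaller differences of the same sign that missed the fold threshold. It measured 4465, 4746 and 4758 normalized counts with vehicle, 5044, 4826 and 4559 with E2, 4181, 4037 and 3813 with E2 plus fulvestrant and 4479, 3698 and 3711 with fulvestrant. All 3 E2 samples were above all 3 E2 plus fulvestrant samples, whereas vehicle and fulvestrant overlapped at replicate 1. The E2 comparison passed on adjusted p (0.0293, limma) and lay just under the fold threshold, with a log2 change of 0.26 (SE 0.07) against the 0.263 required. Fulvestrant minus vehicle likewise had a log2 change of -0.24 (SE 0.07) and a limma adjusted p of 0.0352, so Reck was called in neither. Fulvestrant minus vehicle was 0.00, -0.36 and -0.36 in replicates 1, 2 and 3. It was called lower without replicate 1 in all groups (-0.36, limma adjusted p = 0.00114), without vehicle replicate 1 (-0.32) and without fulvestrant replicate 1 (-0.32). Wnt7a and Wnt7b, the ligands that Adgra2 and Reck serve, were not among the genes analysed here.

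Sfrp1, a secreted inhibitor that binds Wnt ligands, showed the largest change of the 10 genes in both comparisons, about 2-fold within every replicate number. Its normalized counts were 3945, 10884 and 10435 with vehicle, 3871, 10719 and 9472 with E2, 1813, 5383 and 5474 with E2 plus fulvestrant and 2102, 5770 and 5455 with fulvestrant. Replicate 1 was the lowest in each group, so the groups overlapped, yet each sample with fulvestrant was far below its partner without it. E2 minus E2 plus fulvestrant was 1.09, 0.99 and 0.79 on the log2 scale in replicates 1, 2 and 3, a fitted log2 change of 0.96 (SE 0.06), limma adjusted p = 8.59e-06. Fulvestrant minus vehicle was -0.91, -0.92 and -0.94, a fitted log2 change of -0.92 (SE 0.06), limma adjusted p = 1.61e-05. Fitted without the block, the adjusted p was 0.913 and 0.912, and the spread between replicate 1 and the others then exceeded the change. Both comparisons were called when any single replicate number or sample was left out.

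Apcdd1, the membrane inhibitor of Wnt signaling, was highest with E2 alone. Normalized counts of Apcdd1 were 203, 217 and 239.7 with vehicle, 343, 366 and 369 with E2, 185, 237 and 256 with E2 plus fulvestrant and 209.6, 203 and 198 with fulvestrant. All 3 E2 samples were above the other 9 samples, which overlapped one another. E2 (359 ± 14.2) against E2 plus fulvestrant (226 ± 36.9, SD, n = 3 each) gave a log2 change of 0.68 (SE 0.11), limma adjusted p = 0.0032. Against vehicle (220.0 ± 18.5) E2 gave 0.76, 0.75 and 0.62 in replicates 1, 2 and 3 and a fitted log2 change of 0.71 (SE 0.11), with an unadjusted p of 5.82e-05 and a limma adjusted p of 0.07 that missed the threshold. Fulvestrant minus vehicle was -0.11 (95% interval -0.35 to 0.14), limma adjusted p = 0.557. Whether the E2 effect differed with fulvestrant present was tested by the interaction, which was 0.57 (SE 0.16, unadjusted p = 0.00416) and did not pass the adjustment over all genes in limma (adjusted p = 0.944).

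For Apcdd1, E2 against vehicle became a call in 4 of 22 alternative fits, namely with the 2 groups fitted alone (adjusted p = 0.0287), without replicate 1 (0.0473), without E2 plus fulvestrant replicate 1 (0.0373) and without fulvestrant replicate 1 (0.0287). The call for E2 against E2 plus fulvestrant was lost in 2 of 22, without the 4 samples of replicate 2 (0.0722) and without the block (0.0718). Its level was low, with a median of 248 reads a sample.

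Axin2, the feedback target of beta-catenin, was the lowest of the 10 genes and passed the threshold in 0 comparisons. Its normalized counts were 142, 37.4 and 34.8 with vehicle, 128, 55.0 and 36.1 with E2, 81.7, 33.9 and 32.4 with E2 plus fulvestrant and 122, 36.4 and 24.3 with fulvestrant. Replicate 1 held most of the signal in every group, and the groups overlapped. E2 minus E2 plus fulvestrant was positive in 3 of 3 replicate numbers (0.64, 0.68 and 0.15), with a log2 change of 0.49 (SE 0.21) and a limma adjusted p of 0.158. Fulvestrant minus vehicle was negative in 3 of 3 (-0.22, -0.04 and -0.50), with a log2 change of -0.25 (SE 0.21) and a limma adjusted p of 0.456.

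**Figure D3:**
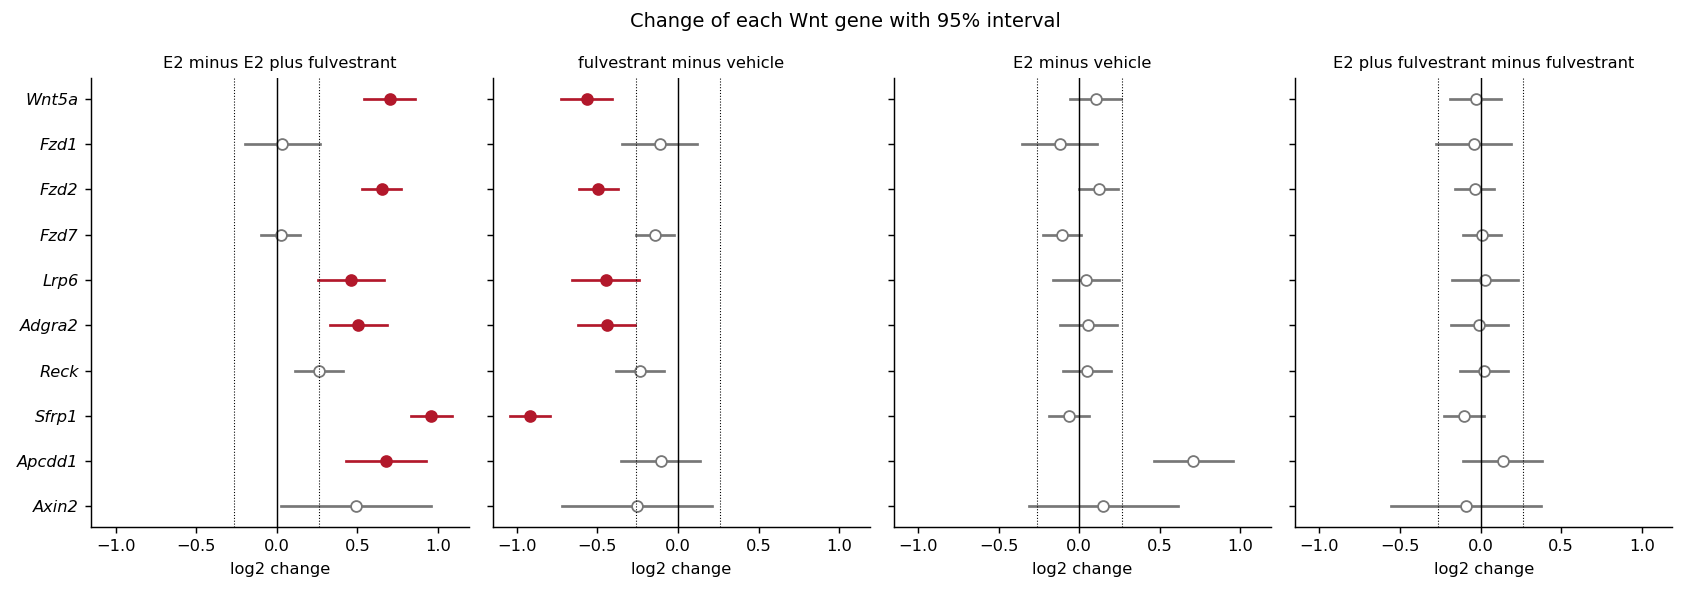
Log2 change (horizontal axes) of each of the 10 genes in 4 comparisons, with 95% intervals from limma as bars. Filled red points passed the adjusted p and fold thresholds (dotted lines, 0.263 on either side of 0) and open grey points did not, so 6 genes are red for E2 minus E2 plus fulvestrant, 5 for fulvestrant minus vehicle and 0 for the other comparisons, where Apcdd1 (0.71) lies apart in E2 minus vehicle.

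With added E2 by itself, few genes passed the adjustment. Against vehicle 0 of the 10 genes were called in limma, with 1 (Apcdd1) at an unadjusted p under 0.05, and 0.0756% of all genes were called. The other 9 genes had log2 changes from -0.12 (Fzd1) to 0.15 (Axin2). Apcdd1 was the 1 listed gene whose groups did not overlap, against 5.19% of all genes. E2 plus fulvestrant against fulvestrant gave 0 calls among the 10 genes, 0 at an unadjusted p under 0.05 and 0.0% of all genes called, and groups did not overlap for 0 of the 10, against 2.42% of all genes. The changes there ran from -0.10 (Sfrp1) to 0.14 (Apcdd1). The interaction gave 0 calls as well, with 1 (Apcdd1) at an unadjusted p under 0.05 and 0.0% of all genes called. Over all genes 1340, 255 and 501 had an unadjusted p under 0.05 in these 3 comparisons. These comparisons share samples with the first pair, so their values are set side by side and not counted as separate evidence.

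Compared per kb of exon, the receptors and Sfrp1 were far more abundant than the ligand and Apcdd1 or Axin2. The median over the 12 samples was 1355 normalized counts per kb for Fzd1, 1250 for Sfrp1, 1181 for Lrp6 and 1088 for Fzd2. Fzd7 (941), Reck (936) and Adgra2 (909) followed closely on the same scale, and the ranges of these 7 genes overlapped from each to the next. The order of Fzd1 and Sfrp1 depended on the replicate number, since Fzd1 was higher per kb in 4 of 4 samples of replicate 1 and Sfrp1 in 8 of 8 samples of replicates 2 and 3. In replicate 1 Sfrp1 was the lowest of these 7 genes in 4 of 4 samples, so the order of medians does not hold there. Wnt5a lay lower at 136 per kb, and its range (104 to 187) met neither neighbor. Apcdd1 (17.7 per kb) and Axin2 (6.7) came last, with ranges that overlapped each other. In the mm10 build, of which the positions are those of GENCODE M21, Sfrp1 (chr8:23411502-23449632) and Adgra2 (chr8:27085583-27123436) lie on one chromosome, as do Fzd2 (chr11:102604396-102608058) and Axin2 (chr11:108920349-108950783). The others are Wnt5a (chr14:28504750-28527448), Fzd1 (chr5:4753839-4758035), Fzd7 (chr1:59482424-59486955), Lrp6 (chr6:134446476-134566965), Reck (chr4:43875530-43944806) and Apcdd1 (chr18:62922231-62961179). The share of each gene's exon sequence that overlapped a same-strand neighbor was 0% for all 10.

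After the mean of each replicate number was subtracted, the 5 listed genes called in both comparisons varied together over the 12 samples. They were picked for their calls in these same samples, so high correlations follow in part from that choice. These genes, Wnt5a, Fzd2, Lrp6, Adgra2 and Sfrp1, had pairwise Pearson correlations of 0.922 (Fzd2 with Lrp6) to 0.981 (Wnt5a with Fzd2). Apcdd1 correlated less with these genes, from 0.557 (Sfrp1) to 0.685 (Fzd2). Of the genes not called, Reck correlated with them at 0.771 (Adgra2) to 0.879 (Fzd2) and Axin2 at 0.746 (Fzd2) to 0.877 (Lrp6), whereas Fzd7 did so at 0.486 (Lrp6) to 0.610 (Sfrp1) and Fzd1 at 0.046 (Adgra2) to 0.291 (Lrp6). The 12 points share the 4 treatments and are given as a description. The same holds for the genes named next, whose group means resemble those of Apcdd1 or Adgra2 because they were picked by correlation. Over the whole table, the genes most like Apcdd1 by this measure were Aff3 (r = 0.964), Qpct (0.948), Plat (0.947), Atp8b1 (0.943) and Gpam (0.934). Qpct, like Apcdd1, had its highest mean with E2, at 1162 normalized counts against 446 with vehicle, 380 with E2 plus fulvestrant and 319.8 with fulvestrant. Those most like Adgra2 were Aldh1l2 (r = 0.994), Pycr1 (0.990), Ltbp3 (0.989), Sfrp2 (0.989) and Pcdh18 (0.984), each with higher means in vehicle and E2 than in both fulvestrant groups.

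A wider list of 129 Wnt pathway genes, sorted by role, placed the 10 genes among their partners, and 90 of them were analysed here. Of these, 7 hold 2 roles (Apcdd1, Axin2, Dact1, Lgr5, Nkd1, Nkd2 and Znrf3) and are counted under each, so the counts by role add up to more than the whole. With E2, 19 of the 90 were higher than with E2 plus fulvestrant and 7 were lower, 28.9% in all against 9.6% of all genes. The median log2 change was 0.05, against -0.01 over all genes. With fulvestrant alone, 7 were higher and 22 lower than with vehicle, 32.2% against 12.5% of all genes, with a median of -0.11 against 0.01. Each of these 26 and 29 genes had the same sign in 3 of 3 replicate numbers, though Ccnd1 by no more than 0.003 in replicate 1. Leaving out the 10 listed genes, 13 of 80 were higher and 7 lower in the first comparison, and 7 higher and 17 lower in the other. In E2 against vehicle, E2 plus fulvestrant against fulvestrant, and the interaction, 0 of the 90 were called in limma, against 0.0756%, 0.0% and 0.0% of all genes. At an unadjusted limma p under 0.05 were 7, 2 and 4 of the 90, against 1340, 255 and 501 of the 13233 genes. The counts depended on the replicates, falling to 12 without replicate 3 and 13 without replicate 2 for E2 minus E2 plus fulvestrant, and to 10 without replicate 3, 15 without replicate 2 and 19 without fulvestrant replicate 3 for fulvestrant minus vehicle, which also gave 17 (5 higher and 12 lower) with the 2 groups fitted alone. The counts over all genes fell too, from 1270 to 316 (2.39%) without replicate 3 and 342 (2.58%) without replicate 2 in E2 minus E2 plus fulvestrant. In fulvestrant minus vehicle they fell from 1648 to 399 (3.02%) without replicate 3, 540 (4.08%) without replicate 2, 1048 (7.92%) without fulvestrant replicate 3 and 692 (5.23%) with the 2 groups fitted alone. Of the 26 genes, 9 were called without each replicate number in turn (Daam2, Rspo2, Fosl1, Sfrp1, Wnt5a, Fzd2, Vangl1, Adgra2 and Ptk7), and of the 29 also 9 (Rspo2, Rspo3, Daam2, Sfrp1, Prickle1, Wnt5a, Fzd2, Vangl1 and Ptk7). The others lost their call in at least 1 of these fits, most often without replicate 2 (13 and 14 genes) or replicate 3 (14 and 19). The sign could not turn in these fits, because each gene had the same sign in 3 of 3 replicate numbers. Without the block the counts were 3 (Wnt5a, Ptk7 and Vangl1) and 2 (Wnt5a and Ptk7). The fibroblast marker sum given above moved with the same groups, and its part was not tested.

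Of 19 Wnt ligands, Wnt5a and Wnt9a were analysed here, and Wnt9a moved opposite to Wnt5a, with log2 changes of -0.59 for E2 minus E2 plus fulvestrant and 0.55 for fulvestrant minus vehicle (limma adjusted p = 0.00945 and 0.0111). Without replicate 1 the latter was 0.36, and it was not called without replicate 2 (adjusted p = 0.0742) or 3 (0.0765). Among 3 agonists, Rspo2 and Rspo3, secreted R-spondins that keep Frizzled receptors on the cell surface, fell with fulvestrant. That made 66.7% of the agonists called in each comparison, against 9.6% and 12.5% of all genes. Rspo2 measured 6625, 2277 and 2174 with vehicle, 5121, 1834 and 1814 with E2, 1189, 822 and 779 with E2 plus fulvestrant and 1304, 711 and 775 with fulvestrant. Its change was 1.49 (SE 0.18, adjusted p = 0.000533) in the first comparison and -1.84 (SE 0.18, adjusted p = 0.000152) in the other, both from limma. Rspo3 changed by 1.49 (SE 0.25, adjusted p = 0.00391) and -1.79 (SE 0.25, adjusted p = 0.00113) in limma. For Rspo2 and Rspo3 all samples without fulvestrant exceeded all samples with it. Rspo1, the third agonist, passed the threshold in neither comparison, with changes of the other sign, -0.47 (SE 0.15, adjusted p = 0.0669) and 0.43 (SE 0.15, adjusted p = 0.0782) in limma.

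Among 18 receptors and co-receptors, 5 were higher in E2 than in E2 plus fulvestrant (Fzd6, Fzd2, Adgra2, Lrp6 and Ptk7) and 0 were lower, 27.8% called against 9.6% of all genes. With fulvestrant alone 7 were lower than with vehicle (Lgr5, Fzd8, Fzd2, Lrp6, Adgra2, Ptk7 and Lgr4) and 0 were higher, 38.9% against 12.5% of all genes. Ptk7, a catalytically inactive receptor of the polarity branch, measured 3885, 3617 and 3466 with vehicle, 3858, 3808 and 3525 with E2, 2666, 2752 and 2782 with E2 plus fulvestrant and 2766, 2768 and 2890 with fulvestrant. It barely varied between replicate numbers, all samples with fulvestrant lay below those without, and it was called without the block as well (limma adjusted p = 0.0169 and 0.0345). The R-spondin receptor Lgr5 changed by -0.96 (SE 0.29, adjusted p = 0.0446) with fulvestrant in limma, and Fzd8 by -0.86 (SE 0.25, adjusted p = 0.041). Replicate 1 carried much of both values, with differences of -1.97, -0.47 and -0.44 for Lgr5 and -1.78, -0.37 and -0.44 for Fzd8 in replicates 1, 2 and 3. Without replicate 1 they were -0.46 and -0.40, still called, and neither was called without replicate 2 (adjusted p = 0.121 and 0.109) or 3 (0.152 and 0.145).

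Of 9 inhibitors at the membrane or outside the cell, 4 were higher in E2 than in E2 plus fulvestrant (Sfrp2, Sfrp1, Apcdd1 and Dkk3) and 3 were lower with fulvestrant than with vehicle (Sfrp2, Sfrp1 and Dkk3), 44.4% and 33.3% against 9.6% and 12.5% of all genes. Sfrp2, a relative of Sfrp1, measured 1222, 2523 and 2375 with vehicle, 1053, 2733 and 2525 with E2, 136, 1091 and 1131 with E2 plus fulvestrant and 204, 918 and 971 with fulvestrant. It was low in replicate 1, as Sfrp1 was, and fell with fulvestrant in each replicate number, with changes of 1.81 (SE 0.33, adjusted p = 0.00527) and -1.77 (SE 0.33, adjusted p = 0.00492) in limma. The agonists Rspo2 and Rspo3, but not Rspo1, and the inhibitors Sfrp1 and Sfrp2 were thus lower with fulvestrant. The Sfrp2 calls were lost without replicate 2 (adjusted p = 0.0619 and 0.0578).

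Among 24 transducers inside the cell, 4 were higher in E2 than in E2 plus fulvestrant (Nkd1, Dact3, Cxxc5 and Apc2) and 1 was lower (Nkd2). Nkd1 and Nkd2, related proteins that bind Dishevelled, thus moved in opposite directions, by 0.53 and -0.97 in this comparison and by -0.62 and 1.01 for fulvestrant minus vehicle. The last value rested on replicate 1, since Nkd2 differed by 1.90, 0.35 and 0.78 in replicates 1, 2 and 3, and without replicate 1 it was 0.56 and not called (adjusted p = 0.0912). With fulvestrant alone 1 transducer was higher (Nkd2) and 4 were lower (Nkd1, Tnik, Dact3 and Apc2), so 20.8% were called in each comparison, against 9.6% and 12.5% of all genes. Of 12 nuclear factors, Tcf7l1, a TCF factor that mainly represses, changed by -0.63 (SE 0.11, adjusted p = 0.00532) for E2 minus E2 plus fulvestrant and by 0.52 (SE 0.11, adjusted p = 0.0121) for fulvestrant minus vehicle in limma, and Bcl9l, a partner of beta-catenin, was lower with fulvestrant (-0.29, but -0.17 and not called without replicate 3). Of the nuclear factors 8.33% and 16.7% were called, close to the 9.6% and 12.5% of all genes. Neither of 2 ligand secretion genes was called.

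Of 13 planar cell polarity genes, 3 were higher in E2 than in E2 plus fulvestrant (Daam2, Prickle1 and Prickle2) and 2 were lower (Vangl1 and Daam1). Daam2, a formin that acts on actin, had the largest change of the wider list in this comparison, 1.91 (SE 0.16, adjusted p = 5.84e-05) in limma, and was far higher in replicate 1 (1517 with vehicle, against 164 and 212 in replicates 2 and 3). Fulvestrant minus vehicle gave 1 higher (Vangl1) and 4 lower (Daam2, Prickle1, Vangl2 and Prickle2), so 38.5% were called in each comparison, against 9.6% and 12.5% of all genes. Cxxc5, Tnik and Prickle2 are also on the study's own list, with the limit stated above for that comparison.

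Of 14 genes listed as beta-catenin targets, Axin2 among them, 2 were higher in E2 than in E2 plus fulvestrant (Apcdd1 and Nkd1) and 3 were lower (Fosl1, Nkd2 and Myc). With fulvestrant alone 4 were higher than with vehicle (Fosl1, Nkd2, Myc and Ccnd1) and 2 were lower (Lgr5 and Nkd1), 35.7% and 42.9% called against 9.6% and 12.5% of all genes. Fosl1, a subunit of the AP-1 factor, measured 109, 1099 and 1089 with vehicle, 115, 1128 and 1113 with E2, 465, 2350 and 2588 with E2 plus fulvestrant and 224, 2780 and 2601 with fulvestrant, and rose with fulvestrant in each replicate number. Myc, a growth regulator, changed by -0.53 (SE 0.11, adjusted p = 0.00894) and 0.77 (SE 0.11, adjusted p = 0.00102) in limma, and the cell cycle gene Ccnd1 by 0.65 (SE 0.17, adjusted p = 0.0262) with fulvestrant. For Ccnd1 this came from replicates 2 and 3, with differences of 0.003, 1.02 and 0.93 in replicates 1, 2 and 3, and it was not called without replicate 2 (adjusted p = 0.273) or 3 (0.289). The targets thus moved in both directions, with a median log2 change of -0.03 in the first comparison and 0.02 in the other.

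**Figure D4:**
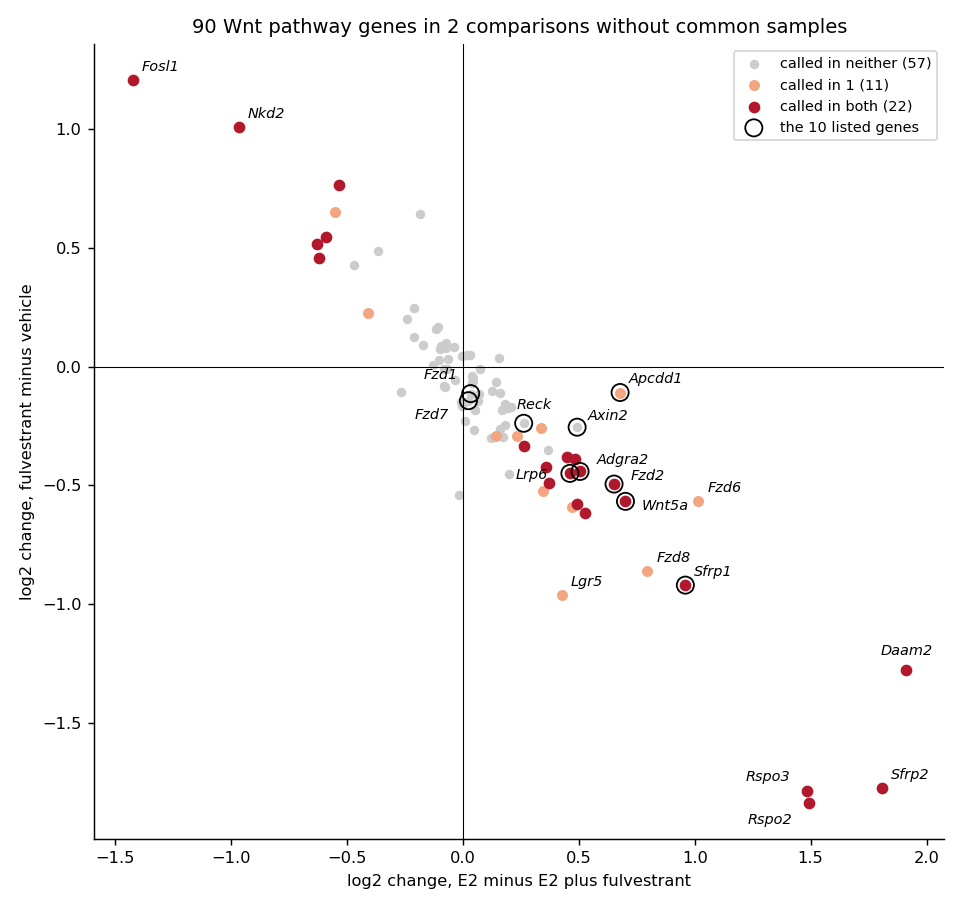
Log2 change for fulvestrant minus vehicle (vertical axis) against log2 change for E2 minus E2 plus fulvestrant (horizontal axis) for the 90 pathway genes, colored by whether a gene was called in neither, 1 or both comparisons, with the 10 listed genes circled. The 22 genes called in both lie in opposite corners, Sfrp2, Rspo2, Rspo3 and Daam2 at one end and Fosl1 and Nkd2 at the other, and Apcdd1 (0.68 and -0.11) lies off this line.

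The first comparison and fulvestrant minus vehicle share no samples in their group means, but their calls rest on 1 fit with 1 estimate of the spread and the same block, so they are not separate tests. Of the 10 listed genes, 5 were called in both, which is 83.3% of the 6 called for E2 minus E2 plus fulvestrant and 100% of the 5 called for fulvestrant minus vehicle, and Apcdd1 was the exception. Of the 90 pathway genes 22 were called in both, 84.6% and 75.9% of the calls. Over all genes 920 were called in both, 72.4% and 55.8% of the calls. In all 3 lists every shared gene changed in opposite sign, that is, lower with fulvestrant in both or higher with fulvestrant in both.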

How the data were processed

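The deposited table gives a normalized count (a signal, not a raw count) for each gene in each sample. The authors trimmed reads with Trimmomatic (0.39), removed ribosomal reads, aligned to mm10 with STAR (2.5.2), counted by strand with HTSeq (0.13.5), removed counts under 10 and divided by a factor per sample (DESeq2 1.37, median of ratios). With reads recovered as above, each value was a whole number of reads (within 0.01) divided by 1 factor per sample. The methods name batch adjustment, but the values still separate by replicate number.

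Values were fitted as log2(value + 1) for 13233 genes in limma 3.58.1 (R 4.3.3; eBayes with trend) on all 12 samples, with group and replicate number. The number was a block because the methods adjust for batch. Same-numbered samples correlated at 0.63 to 0.92 in their deviations from group means (18 pairs, mean 0.764), replicates 2 and 3 at 0.63 to 0.79 (mean 0.714) and replicate 1 with either at -0.86 to -0.71, so the split is mainly that of replicate 1. As every same-numbered pair exceeded 0.1, the numbers, which come from the labels, were taken as pairs. All pairs of replicates 2 and 3 exceeded it too, so this rule cannot tell whether those numbers are matched across groups. Alternatives were no block, 2 groups only, a pseudocount of 5, a mean of at least 100, CPM scaling, quantile normalization, no fold threshold, and omission of each sample or replicate number.

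Members, lists and tests were chosen with earlier results of these data known. Beside the 10 genes, up to 3 called genes per direction, role and comparison, the 5 genes most correlated with Apcdd1 and with Adgra2, Pgr and markers were to be named; others in groups of at most 7 called genes were named after their values were seen. Symbols and positions are from GENCODE M21 (GRCm38). The fit was tested on simulated data for E2 minus E2 plus fulvestrant (13233 genes). In these, 200 genes were changed in the E2 group alone, by the same fold in each replicate number. The fit recovered 74% of 1.5-fold and 88% of 2-fold changes, and 4.4% of its calls were unchanged genes. The calls in the real data mostly followed fulvestrant in 2 groups, so these rates need not hold for them. Plots were drawn with matplotlib 3.10.9 in Python 3.11.15.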

Additional observations from a re-analysis of the deposited data

How the results depend on the processing

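The replicate block decided most calls: without it, 1 of the 10 genes was called in each of the first pair of comparisons and 3 and 2 of the 90 pathway genes, while over all genes the counts fell from 1270 to 69 and from 1648 to 72 (E2 against vehicle, 10 to 1). Among the 10 and the 90 genes, the remaining comparisons had 0 calls with the block and 0 without it. With only the 2 groups compared in the fit, fulvestrant minus vehicle gave 17 of the 90 pathway genes (692 of all genes), and E2 minus vehicle gave 1 of the 10, 4 of the 90 and 57 of all genes. Leaving out replicates, E2 minus E2 plus fulvestrant called 4 to 6 of the 10, 12 to 33 of the 90 and 316 (without replicate 3) to 1611 of all genes; fulvestrant minus vehicle 3 to 7, 10 to 40 and 399 (without replicate 3) to 2312; E2 minus vehicle 0 to 1, 0 to 1 and 0 to 59; E2 plus fulvestrant minus fulvestrant 0 to 4 of all genes, and the interaction 0 to 11. Reck was called for E2 minus E2 plus fulvestrant with quantile normalization (0.29), CPM (0.27) or adjusted p alone, and likewise for fulvestrant minus vehicle (-0.29 and -0.28).

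Signs turned only for changes that were not called. By scaling, Lrp6 became -0.058 for E2 minus vehicle, and -0.079 (quantile) and -0.013 (CPM) for the interaction, Fzd7 -0.0033 (quantile) for E2 plus fulvestrant minus fulvestrant, and Reck -0.0017 (CPM) for the interaction. Leaving out replicates, the ranges that crossed 0 were, for E2 minus E2 plus fulvestrant, Fzd1 -0.061 to 0.18 and Fzd7 -0.025 to 0.061; for E2 minus vehicle, Lrp6 -0.11 to 0.12, Adgra2 -0.0068 to 0.16, Reck -0.036 to 0.10 and Axin2 -0.049 to 0.30; for E2 plus fulvestrant minus fulvestrant, Wnt5a -0.097 to 0.0067, Fzd1 -0.13 to 0.080, Fzd2 -0.092 to 0.014, Fzd7 -0.030 to 0.058, Lrp6 -0.041 to 0.12, Adgra2 -0.067 to 0.098, Reck -0.032 to 0.10 and Axin2 -0.33 to 0.15; and for the interaction, Fzd1 -0.20 to 0.035, Lrp6 -0.12 to 0.16, Adgra2 -0.043 to 0.17, Reck -0.10 to 0.087 and Sfrp1 -0.033 to 0.13. The causes were not tested. Axin2, with a mean under 100, has no value under that filter. The planned count tests on recovered reads with edgeR and DESeq2 were not run, because every gene has at least 10 reads in every sample and the table holds no value of 1 read against which to check the recovery.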
